A study of Mus musculus with 8 samples.

Results

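The distal convoluted tubule is the short stretch of the nephron that lies after the macula densa and takes back salt, calcium and magnesium from the urine. Its salt and divalent ion genes were followed here through 10 mouse genes, taken by symbol from the 25240 gene symbols of the deposited count table. The choice was made with earlier results of these data known. They were Slc12a3 (the thiazide-sensitive sodium chloride cotransporter), its regulators Wnk1, Wnk4, Stk39 and Klhl3, the magnesium channel gene Trpm6, the calcium-binding proteins Pvalb and Calb1, the calcium channel gene Trpv5 and the sodium calcium exchanger gene Slc8a1. All 10 passed the filter on low counts, as did 14284 of all genes (56.6%).

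The study concerned senescent cells and sequenced kidney cell RNA of p16-tdTomato mice, whose reporter is named after a cell cycle inhibitor. It made 8 libraries: 4 Tomato-negative and 4 Tomato-positive. Every library, the Tomato-negative ones included, came from animals with chronic kidney disease (CKD) brought on by adenine-rich feed. There was no healthy group. The age and strain of the mice, the construction of the reporter, the sort and whether animals were separate or pooled were not stated in the labels. The p-values therefore rest only on how far these samples vary, which may be technical. A pair is the Tomato-negative and the Tomato-positive library with the same identifier in the title, which gave the 4 pairs CKD523_2, CKD523_3, CKD627_1 and CKD627_2. The prefixes CKD523 and CKD627 each covered 2 pairs, and the labels do not say what a prefix stands for.

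In the distal convoluted tubule, sodium and chloride enter the cell through the cotransporter made from Slc12a3. WNK kinases switch it on through the kinase SPAK, the product of Stk39, and KLHL3 marks WNK kinases for breakdown. Magnesium enters through TRPM6, and in the later part of the segment and the connecting tubule calcium enters through TRPV5, is carried by calbindin and leaves through the exchanger made from Slc8a1. Mutations of SLC12A3 cause Gitelman syndrome, a salt-losing disorder, and mutations of WNK1, WNK4 or KLHL3 cause familial hyperkalaemic hypertension.

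The libraries held 13474439 to 19886202 counts, so that the limit a count of 0 allows (3 counts, counting error only) lay between 0.151 and 0.223 counts per 1000000 counts of the library (CPM). The tdTomato transgene was at 79.5 to 159 CPM in the Tomato-negative and 3167 to 4143 CPM in the Tomato-positive libraries. The labels name the cells as proximal tubular epithelial cells, and all 10 proximal tubule markers listed (Lrp2, Slc34a1 and others) were detected in every library, with a summed level of 6100 to 22460 CPM in the Tomato-negative and 3953 to 10020 CPM in the Tomato-positive libraries. Markers of other segments were present as well, beyond what the label names. The 6 thick ascending limb markers summed to 3541 to 13770 and 1713 to 6984 CPM in the same order. Their sum exceeded the proximal tubule sum in Tomato-negative CKD627_1 (12080 against 6100 CPM) and CKD627_2 (13770 against 7311 CPM). It did so in Tomato-positive CKD627_1 too (6984 against 3953 CPM), while the proximal tubule sum was larger elsewhere. The 10 salt and divalent ion genes summed to 1447 to 2718 CPM in the Tomato-negative and 603 to 1456 CPM in the Tomato-positive libraries. These were bulk samples, in which fewer cells of a type and less RNA per cell cannot be told apart.

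Upstream sequence is shown for Slc12a3 and Pvalb, whose levels did not overlap between the Tomato groups, for Klhl3, whose levels followed those of Slc12a3 within prefixes, and for Trpm6, which was not lower in the Tomato-positive cells. Each run holds the 250 bases before the transcription start, from RefSeq on the mouse build GRCm38.p6, read 5′ to 3′ on the gene's strand. Capitals mark a match to the AP-2 motif, the letters GCCNNNGGC, which read the same on both strands. AP-2 beta, the product of Tfap2b, is a transcription factor of this segment.
Slc12a3: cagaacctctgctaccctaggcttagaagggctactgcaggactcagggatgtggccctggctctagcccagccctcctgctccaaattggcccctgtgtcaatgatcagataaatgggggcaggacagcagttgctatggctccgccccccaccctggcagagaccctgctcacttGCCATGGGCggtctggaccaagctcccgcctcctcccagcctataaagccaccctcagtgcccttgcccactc
Pvalb: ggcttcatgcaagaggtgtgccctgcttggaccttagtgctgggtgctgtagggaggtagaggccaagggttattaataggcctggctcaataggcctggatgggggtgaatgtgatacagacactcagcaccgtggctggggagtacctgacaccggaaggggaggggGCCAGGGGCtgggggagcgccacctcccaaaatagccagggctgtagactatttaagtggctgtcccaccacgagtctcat
Klhl3: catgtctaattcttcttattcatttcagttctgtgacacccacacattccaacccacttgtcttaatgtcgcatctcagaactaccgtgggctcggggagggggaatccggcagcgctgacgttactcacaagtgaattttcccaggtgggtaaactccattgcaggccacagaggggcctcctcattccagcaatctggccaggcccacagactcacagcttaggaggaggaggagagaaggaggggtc
Trpm6: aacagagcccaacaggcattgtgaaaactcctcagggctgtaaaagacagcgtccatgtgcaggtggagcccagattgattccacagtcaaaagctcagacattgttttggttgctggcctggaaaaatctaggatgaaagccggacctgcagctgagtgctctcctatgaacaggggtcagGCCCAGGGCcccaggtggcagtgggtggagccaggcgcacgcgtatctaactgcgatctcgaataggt
The windows lie at chr8:94328958-94329207 (plus strand), chr15:78206401-78206650 (minus strand), chr13:58113648-58113897 (minus strand) and chr19:18749480-18749729 (plus strand). The match began 73 bases before the start of Slc12a3, 81 before that of Pvalb and 68 before that of Trpm6. RefSeq gave 10 such windows for 9 of the genes, Pvalb having 2 and Calb1 none. The AP-2 letters stood in 7 of the 10 windows and upstream of 6 of the 9 genes (Slc12a3, Pvalb, Trpm6, Wnk1, Wnk4 and Stk39), and in 13.7% of all 32851 mouse windows of that length. The windows of these genes were richer in G and C (median 59.8%) than all windows (median 52.4%). The only other motifs searched were the steroid receptor letters AGAACA and the HNF1 half-site letters GTTAAT. Neither was found on either strand of the 10 windows, while 16.1% and 6.43% of all windows held them. A match of letters is a description and not a bound site.

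The salt entry gene Slc12a3 and the early segment marker Pvalb were lower in every Tomato-positive than in any Tomato-negative library, 2 of 10 genes where 5.69% of tested genes did so. Slc12a3, Pvalb, Wnk4, Calb1 and Slc8a1 were lower in the Tomato-positive library of all 4 pairs, 5 of 10 against 15.5% of tested genes. None of the 10 was higher in all 4 pairs, where 20% of tested genes were. The larger fitted log2 differences were those of Pvalb, Slc12a3, Calb1 and Klhl3, and the 95% intervals of Trpm6, Wnk1 and Stk39 in the paired fit included 0.

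How many of these differences passed a test depended on the model. With neither pair nor prefix in it, edgeR's quasi-likelihood test with Benjamini-Hochberg adjustment over all tested genes called 0 of the 10 (0.595% of tested genes), with 4 at an unadjusted p under 0.05 (17.8% of tested genes), and limma-voom also called 0. DESeq2 without pairs called 3 of the 10 (Slc12a3, Pvalb and Klhl3) and 1000 genes in all, against 85 by edgeR. With prefix as a covariate, edgeR called 6 of the 10 (Slc12a3, Pvalb, Calb1, Klhl3, Wnk4 and Slc8a1) and 1527 genes in all. With the identifier as a block, edgeR called 3 of the 10, all lower (Slc12a3, Pvalb and Calb1), where 7.62% of tested genes were called and 3.81% were called lower. The median log2 difference of the 10 genes was -0.51 in the paired fit, against 0.01 over all tested genes. Leaving 1 pair out of the paired fit gave 3 genes without CKD523_2, 3 without CKD523_3, 8 without CKD627_1 (all but Trpm6 and Stk39) and 2 without CKD627_2 (Slc12a3 and Calb1). The number of all genes called was 521, 203, 1319 and 384 in the same order, against 1089 with all pairs.

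**Figure D1:**
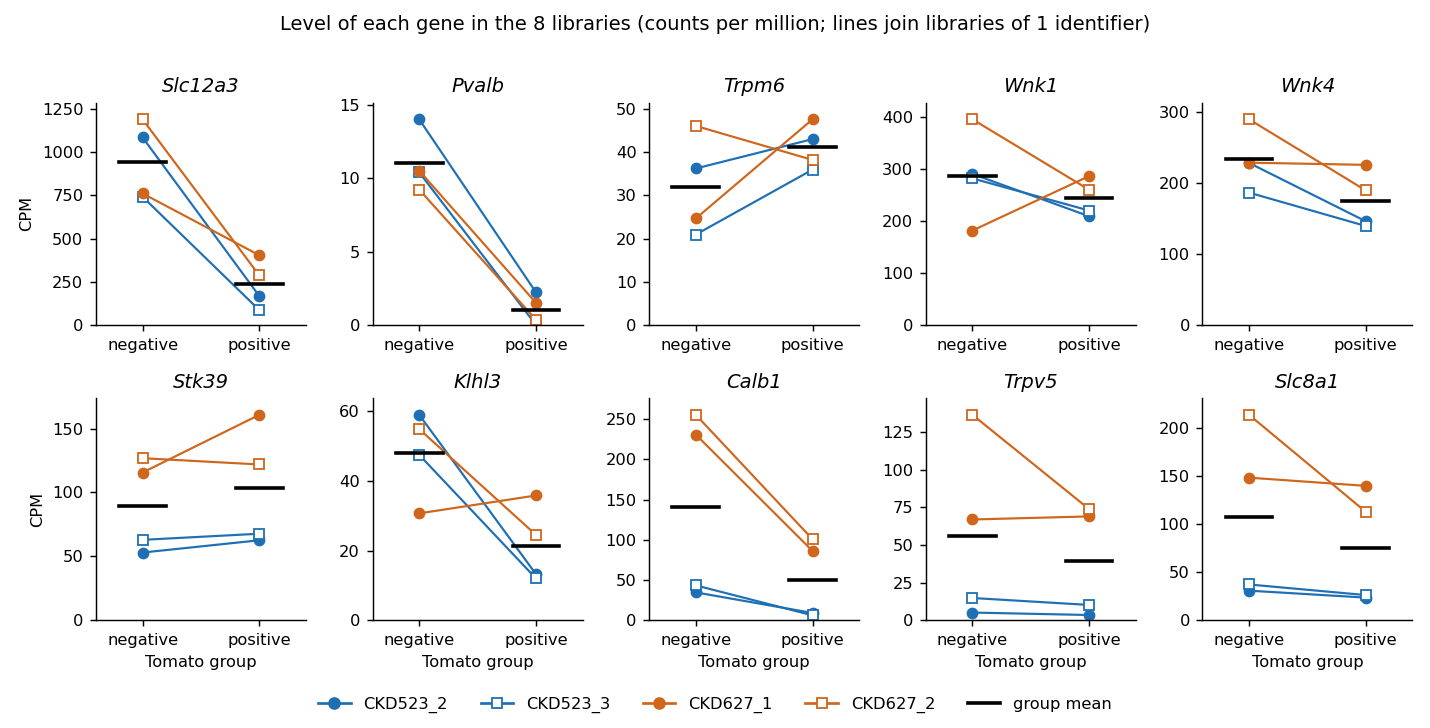
Level of each of the 10 genes in CPM (vertical axis) in the Tomato-negative and Tomato-positive library of each identifier (points joined by a line), with the group mean as a black bar. For Slc12a3 and Pvalb all Tomato-positive points lie under all Tomato-negative ones, while for Calb1, Trpv5, Slc8a1 and Stk39 the CKD627 points lie above the CKD523 points.

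Slc12a3 (chr8:94329201-94366214, plus strand, mm10, as for all positions here) encodes the cotransporter blocked by thiazide diuretics. Its level was 1086, 742, 761 and 1191 CPM in the Tomato-negative libraries of CKD523_2, CKD523_3, CKD627_1 and CKD627_2, and 167, 85.8, 403 and 287 CPM in the Tomato-positive libraries in the same order. Every Tomato-negative library stood above every Tomato-positive one, and both CKD627 Tomato-positive libraries stood above both CKD523 ones. The Tomato-negative library held 6.50, 8.65, 1.89 and 4.15 times the level of its Tomato-positive partner. In the paired fit Slc12a3 fell by 2.24 ± 0.33 (log2, SE, edgeR adjusted p = 0.007814, lower in 4 of 4 pairs), a level 4.73-fold lower (95% interval 2.80 to 8.00). The unpaired edgeR fit gave -2.07 ± 0.41 (log2, adjusted p = 0.06035). The paired call held without any 1 pair, with the fitted difference between -2.66 without CKD627_1 and -1.93 without CKD523_3.

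The kinases that act on the cotransporter varied far less than Slc12a3 itself. Wnk4 (chr11:101260567-101277409, plus strand), a WNK kinase of the distal nephron, was at 228, 186, 228 and 289 CPM in the Tomato-negative and 146, 139, 225 and 189 CPM in the Tomato-positive libraries. The groups overlapped, and the CKD627_1 pair was nearly level. The paired fit gave Wnk4 a log2 difference of -0.46 ± 0.15 (edgeR adjusted p = 0.09211, 95% interval -0.80 to -0.13), which missed the threshold of 0.05, as did the unpaired value of -0.45 ± 0.17 (adjusted p = 0.2083). The Wnk4 difference passed without the CKD627_1 pair (-0.60, edgeR adjusted p = 0.01825), with prefix as a covariate in place of the pairs (-0.47, edgeR adjusted p = 0.04699) and with DESeq2 on the pairs (-0.48, adjusted p = 0.02892). A gene annotated on the other strand, Gm11615, covers 7.38% of the exon bases of Wnk4, and reads of the 2 genes cannot be told apart where the strand setting is not known.

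Wnk1 (chr6:119923969-120038672, minus strand) encodes a widely expressed WNK kinase and, in the distal convoluted tubule, a shorter form that lacks the kinase domain. Gene counts pool all 26 annotated transcripts, so the forms were not separated. Its level was 290, 282, 181 and 395 CPM in the Tomato-negative and 209, 220, 286 and 260 CPM in the Tomato-positive libraries. The lowest and the highest Wnk1 levels of all 8 libraries were both Tomato-negative, from the CKD627 pairs. The CKD627_1 pair differed by 0.66 on the log2 scale and the other 3 pairs by -0.61 to -0.36. The paired log2 difference of Wnk1 was -0.24 ± 0.21 (edgeR adjusted p = 0.5188, 95% interval -0.71 to 0.23), and -0.52 (adjusted p = 0.03023) without the CKD627_1 pair.

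Stk39 (chr2:68210445-68472268, minus strand) encodes SPAK, which phosphorylates the cotransporter. It was at 53.0, 63.0, 116 and 127 CPM in the Tomato-negative and 62.6, 67.8, 161 and 122 CPM in the Tomato-positive libraries. All 4 CKD627 libraries exceeded all 4 CKD523 libraries, whichever the Tomato group. The paired log2 difference of Stk39 was 0.15 ± 0.14 (edgeR adjusted p = 0.5381, 95% interval -0.16 to 0.47). The pair differences lay between -0.06 and 0.48, and that of CKD523_3 turned from 0.11 by library total to -0.004 with TMM factors.

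Klhl3 (chr13:58000228-58113592, minus strand) encodes the adaptor that brings WNK kinases to a ubiquitin ligase. Its level was 59.0, 47.5, 30.7 and 54.9 CPM in the Tomato-negative and 13.3, 12.1, 35.8 and 24.5 CPM in the Tomato-positive libraries. The groups overlapped through a single pair, CKD627_1, in which the Tomato-positive library held 546 counts and the Tomato-negative 499. In the other 3 pairs the Tomato-negative library held 4.44, 3.94 and 2.24 times the level of its partner. The paired log2 difference of Klhl3 was -1.31 ± 0.37 (edgeR adjusted p = 0.06624, lower in 3 of 4 pairs), and -1.79 (adjusted p = 0.003701) without the CKD627_1 pair. The unpaired value was -1.24 ± 0.35 (adjusted p = 0.1237).

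**Figure D2:**
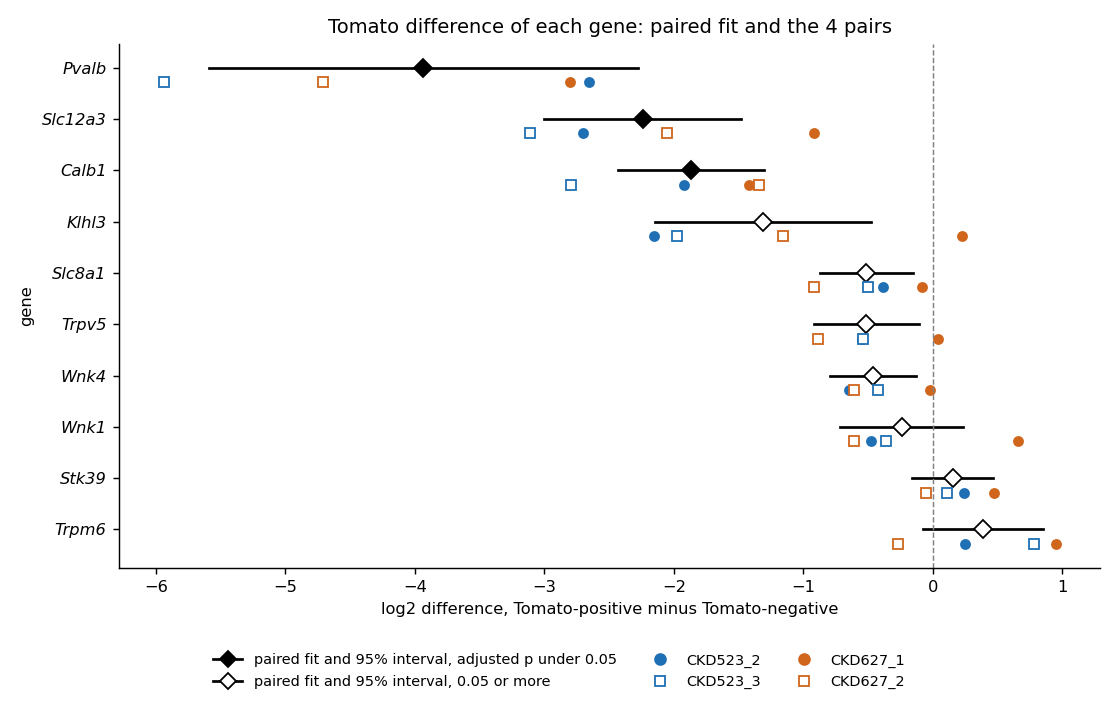
Log2 difference, Tomato-positive minus Tomato-negative, of each gene: the paired fit with its 95% interval (diamond and line, filled where the adjusted p was under 0.05) and the 4 single pairs (coloured points under it). Slc12a3, Pvalb and Calb1 are filled, and the Pvalb point of CKD523_3, where the Tomato-positive library had 0 counts, is placed at the level of 3 counts.

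Parvalbumin, from Pvalb (chr15:78191114-78206400, minus strand), is a calcium buffer of the early distal convoluted tubule. The Tomato-negative libraries held 197, 178, 171 and 138 counts of it and the Tomato-positive libraries 30, 0, 23 and 7. In CPM these were 14.0, 10.4, 10.5 and 9.23 CPM against 2.23, 0, 1.51 and 0.352 CPM. The highest Tomato-positive level stood well under the lowest Tomato-negative one, and the 0 of CKD523_3 allows up to 0.170 CPM. The level was 6.30, 6.97 and 26.2 times higher in the Tomato-negative library of CKD523_2, CKD627_1 and CKD627_2, the last of which rests on 7 counts, and at least 61.4-fold higher in that of CKD523_3 against the limit of 3 counts. In the paired fit Pvalb fell by 3.93 ± 0.73 (log2, SE, edgeR adjusted p = 0.01625, 95% interval -5.59 to -2.28, lower in 4 of 4 pairs). The unpaired fit gave -3.51 ± 0.88 (edgeR adjusted p = 0.09924). The paired call was lost without the CKD627_2 pair, where the Pvalb difference was -3.71 (adjusted p = 0.07578).

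Trpm6 (chr19:18749983-18892511, plus strand) encodes the channel through which magnesium enters the cell. It was at 36.2, 20.9, 24.7 and 46.1 CPM in the Tomato-negative and 43.0, 35.97, 47.6 and 38.2 CPM in the Tomato-positive libraries. The Tomato-positive library was the higher one in 3 of 4 pairs, and the groups overlapped. The paired log2 difference of Trpm6 was 0.39 ± 0.21 (edgeR adjusted p = 0.2813, 95% interval -0.08 to 0.85), and the unpaired one 0.34 ± 0.23 (adjusted p = 0.4787). The balance of Trpm6 and Slc12a3 within a library differed between the groups. For every 100 counts of Slc12a3 there were 2.82 to 3.87 counts of Trpm6 in the Tomato-negative and 11.8 to 41.9 in the Tomato-positive libraries. These ranges did not overlap, but the ratio holds the fall of Slc12a3 in it and was not tested.

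Of the calcium genes, Calb1 (chr4:15881264-15908064, plus strand) encodes calbindin-D28k, the buffer that carries calcium across the cell. Its level was 34.8, 43.5, 231 and 256 CPM in the Tomato-negative and 9.203, 6.28, 86.3 and 101 CPM in the Tomato-positive libraries. The Tomato-positive library was the lower one in each pair, yet both CKD627 Tomato-positive libraries stood above both CKD523 Tomato-negative ones, so that the groups overlapped. The Tomato-negative library held 3.78, 6.93, 2.67 and 2.53 times the level of its partner. In the paired fit Calb1 fell by 1.87 ± 0.25 (log2, SE, edgeR adjusted p = 0.005139, lower in 4 of 4 pairs), a level 3.65-fold lower (95% interval 2.46 to 5.41). The unpaired fit gave Calb1 a log2 difference of -1.50 ± 0.94 (edgeR adjusted p = 0.4331). The paired call held without any 1 pair, with the fitted Calb1 difference between -2.08 and -1.59.

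Trpv5 (chr6:41652173-41680769, minus strand) encodes the apical calcium channel. It was at 5.20, 14.9, 66.9 and 136 CPM in the Tomato-negative and 3.56, 10.2, 69.0 and 73.8 CPM in the Tomato-positive libraries. The CKD627 libraries were the high ones in both groups, and the CKD627_1 pair was level. The paired log2 difference of Trpv5 was -0.51 ± 0.18 (edgeR adjusted p = 0.1195, 95% interval -0.92 to -0.11), and -0.72 (adjusted p = 0.0217) without the CKD627_1 pair.

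Slc8a1 (chr17:81373105-81738377, minus strand) encodes the exchanger NCX1, which moves calcium out at the basolateral side. Its level was 30.9, 37.3, 148 and 214 CPM in the Tomato-negative and 23.7, 26.3, 140 and 113 CPM in the Tomato-positive libraries. The 4 pair differences of Slc8a1 were all negative, between -0.92 and -0.09 on the log2 scale, while the groups overlapped. The paired log2 difference was -0.51 ± 0.16 (edgeR adjusted p = 0.08639, 95% interval -0.87 to -0.15), and -0.65 (adjusted p = 0.02222) without the CKD627_1 pair. Exons of 2 genes on the other strand cover 1.57% and 0.0425% of the exon bases of Slc8a1. Set against Calb1, Slc8a1 stood at 64.3 to 88.8 counts per 100 counts of Calb1 in the Tomato-negative and 112 to 419 in the Tomato-positive libraries, ranges that did not overlap. Trpv5 stood at 14.9 to 53.4 and 38.7 to 163 counts per 100 counts of Calb1, ranges that overlapped, and neither difference was tested.

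Levels were compared between genes per exon length, as CPM over the kilobases of protein-coding exon (RPKM). In the Tomato-negative cells Slc12a3 led with 201 ± 48.3 RPKM (SD, n = 4), followed by Wnk4 with 56.6 ± 10.3, Calb1 with 33.4 ± 28.02, Stk39 with 25.3 ± 10.5 and Wnk1 with 23.1 ± 7.04. Lower levels were those of Trpv5 with 17.2 ± 18.5 RPKM, Pvalb with 10.6 ± 1.99, Klhl3 with 6.71 ± 1.75, Slc8a1 with 5.72 ± 4.73 and Trpm6 with 4.76 ± 1.71. Among neighbours in that order only Slc12a3 and Wnk4, and Pvalb and Klhl3, had ranges that did not overlap. In the Tomato-positive cells Slc12a3 was still first by its mean, with 50.1 ± 29.5 RPKM, beside Wnk4 with 42.5 ± 9.78, and their ranges overlapped. Pvalb was last there with 0.982 ± 0.989 RPKM. Trpm6, the lowest of the 10 in the Tomato-negative cells, was the 7th of the 10 in the Tomato-positive cells with 6.14 ± 0.774 RPKM. The exons of Slc12a3 span 4710 bases in protein-coding transcripts but 11119 in all transcripts, those of Wnk4 4117 and 4148. Which transcripts were counted is not known. With the lengths of all transcripts, Slc12a3 would stand under Wnk4 in the Tomato-positive cells, and their Tomato-negative ranges would overlap.

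The ratio of the regulator genes to the cotransporter gene restates the fall of Slc12a3 within each library, free of its total. For every 100 counts of Slc12a3, Wnk4 had 21.0 to 30.0 counts in the Tomato-negative and 55.8 to 162 in the Tomato-positive libraries, and Stk39 had 4.88 to 15.2 against 37.5 to 79.0. Klhl3 came nearest to following the cotransporter, with 4.03 to 6.398 counts against 7.95 to 14.0. None of these 3 ranges overlapped between the groups. Nor did those of Wnk1, at 23.8 to 38.0 and 71.0 to 256 counts, though its own levels overlapped. A gene that changes little separates in such a ratio through Slc12a3 alone, so the ratios add no separate result.

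Across the 8 libraries, after each prefix's mean log2 CPM was subtracted, Slc12a3 correlated with Calb1 at 0.958, with Klhl3 at 0.949, with Pvalb at 0.945 and with Wnk4 at 0.939. The value was 0.756 for Slc8a1, 0.501 for Wnk1, 0.226 for Trpv5, -0.347 for Trpm6 and -0.522 for Stk39. These are descriptions over 8 points that share the Tomato grouping and the library totals. Among 11310 genes with a mean of at least 5 CPM, those most like Slc12a3 by this measure were Ptgfr (0.983), Tmem52b (0.980), Rab27a, Shmt1 and Phyh (each 0.980). Those most like Calb1 were Gss (0.992), Ahcy (0.991), Mogat1 (0.991), Phyh (0.990) and Msra (0.990).

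The second axis of variation among the 10 genes was the prefix. Calb1, Trpv5, Slc8a1 and Stk39 were higher in every CKD627 than in any CKD523 library, 4 of 10 genes against 14.9% of tested genes. The same 4 were called higher in CKD627 by an edgeR fit with Tomato group and prefix, where 21.1% of tested genes were called and 9.66% were called higher. That fit had no term for the identifier and took the 8 libraries as separate samples. Each prefix covered only 2 pairs, so its p-values may be too small. The prefix difference was 2.94 ± 0.23 (log2, SE, edgeR adjusted p = 5.766e-05) for Calb1, a 7.67-fold higher level. For Trpv5 it was 3.19 ± 0.38 (edgeR adjusted p = 0.00032), for Slc8a1 2.22 ± 0.15 (edgeR adjusted p = 3.054e-05) and for Stk39 0.94 ± 0.13 (edgeR adjusted p = 0.000649). Slc12a3, the salt entry gene, differed by 0.62 (edgeR adjusted p = 0.213) and Pvalb by -0.44 (adjusted p = 0.7235). The 3 calcium genes of the later segment thus carried the larger prefix differences, and Slc12a3 and Pvalb the larger Tomato differences. Calb1 carried both, as its paired Tomato difference of -1.87 (log2) came next after those of Pvalb and Slc12a3. What differed between the prefixes is not given, and a batch, the animals and the course of the disease cannot be told apart here.

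**Figure D3:**
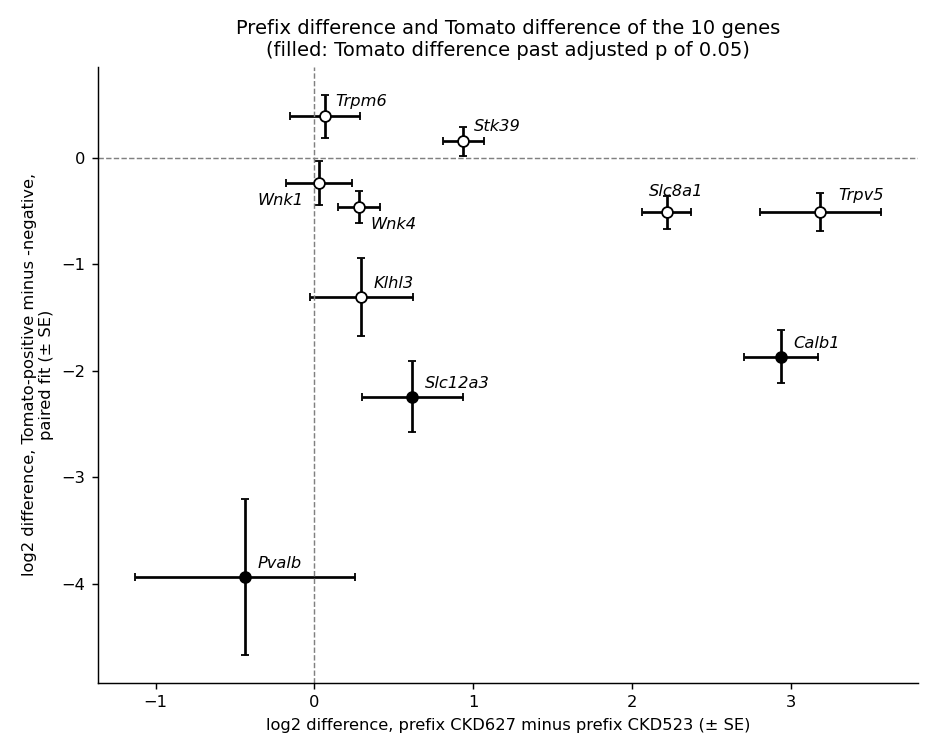
Log2 difference between the prefixes, CKD627 minus CKD523 (horizontal axis), and between the Tomato groups in the paired fit (vertical axis), each with its SE, for the 10 genes. Calb1, Trpv5 and Slc8a1 lie to the right at 2.22 to 3.19, while Pvalb and Slc12a3 lie low with prefix differences under 0.7.

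Markers of other cell types moved with the prefix as well. Of all 14284 tested genes, 1634 were called lower in CKD627 and 1380 higher. Of the proximal tubule markers 8 of 10 were lower in CKD627 (median log2 difference -1.73) and none higher. Of the markers of the thick ascending limb, which lies just before the distal convoluted tubule, 4 of 6 were higher and 1 lower (median 1.78). All 6 principal cell markers (median 2.51), 4 of 5 intercalated cell markers (median 1.64) and 4 of 5 endothelial markers (median 2.08) were higher, and none of these lists had a lower one. The median of the 10 salt and divalent ion genes was 0.46 and that of all tested genes 0.03. The part of these other cell types in the prefix differences of Calb1, Trpv5, Slc8a1 and Stk39 was not tested.

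Within the prefixes, the Tomato difference was tested separately over the 2 Tomato-negative and 2 Tomato-positive libraries of each, without the block. In CKD523 alone, 6 of the 10 genes fell (Slc12a3, Klhl3, Pvalb, Calb1, Wnk4 and Wnk1), where 15.7% of tested genes were called and 8.38% were called lower. In CKD627 alone 3 of the 10 fell (Slc12a3, Pvalb and Calb1), where 2.07% were called and 1.01% were called lower. Slc12a3 fell by 2.92 in CKD523 (log2, edgeR adjusted p = 0.000237) and by 1.54 in CKD627 (adjusted p = 0.01337). Calb1 fell by 2.42 in CKD523 (edgeR adjusted p = 0.0002482) and by 1.41 in CKD627 (adjusted p = 0.009983). Pvalb, the early segment marker, fell by 3.59 in CKD523 (edgeR adjusted p = 0.03425) and by 3.48 in CKD627 (adjusted p = 0.02719). Klhl3 fell by 2.14 in CKD523 (edgeR adjusted p = 0.0001089) and differed by -0.54 in CKD627 (adjusted p = 0.3553).

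Whether the Tomato difference itself differed between prefixes was tested as an interaction, CKD627 minus CKD523, without the identifier as a block. It reached 1.63 ± 0.40 (log2, SE, edgeR adjusted p = 0.1834) for Klhl3, 1.41 ± 0.45 (adjusted p = 0.2581) for Slc12a3 and 1.04 ± 0.31 (adjusted p = 0.2344) for Calb1. None of the 10 genes passed (0.014% of tested genes did), with 3 at an unadjusted p under 0.05 (13.2% of tested genes). DESeq2 called these 3 (Klhl3, Slc12a3 and Calb1) among 280 genes in all, where edgeR called 2, and limma-voom called none of the 10. Without the Tomato-negative library of CKD627_2 the edgeR fit called 3 of the 10 (Klhl3, Slc12a3 and Wnk1) among 1495 genes in all. For Pvalb the interaction was 0.12 (95% interval -3.05 to 3.30), so that these libraries set no narrow bound on it.

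Other genes of the same pathways were described by lists. Of 45 such genes tested the unpaired edgeR fit called 0, with 12 at an unadjusted p under 0.05, limma-voom called 0 and DESeq2 called 8. The paired edgeR fit called 12, of which 10 fell and 2 rose (3.81% of tested genes were called lower and 3.82% higher), and the values that follow are from it. Leaving out 1 pair gave 8 genes without CKD627_2 to 19 without CKD627_1. Egf, Emx1, Fxyd2, Hsd11b2, Klk1, Ppp1r1a and Tmem52b were called without any 1 pair. The call of S100g was lost without CKD627_2, that of Pth1r without CKD523_3 or CKD627_2, and those of Trpv6 and Kl without any 1 pair other than CKD627_1. Among the partners of the WNK cascade 1 of 11 tested genes rose and 1 fell (median 0.07). Hsd11b2, the enzyme that shields the mineralocorticoid receptor from glucocorticoids, was at 20.6, 48.8, 607 and 492 CPM in the Tomato-negative and 63.2, 149, 1061 and 1126 CPM in the Tomato-positive libraries. It rose by 1.26 ± 0.17 (log2, SE, edgeR adjusted p = 0.004735), higher in 4 of 4 pairs. Ppp1r1a, an inhibitor of protein phosphatase 1, was at 91.8 ± 41.7 CPM in the Tomato-negative and 25.4 ± 12.3 CPM in the Tomato-positive libraries (SD, n = 4) and fell by 1.92 ± 0.18 (log2, SE, edgeR adjusted p = 0.001208), lower in 4 of 4 pairs. Sgk1, the aldosterone-induced kinase, was at 258 ± 31.1 and 350 ± 176 CPM, a paired log2 difference of 0.26 ± 0.24 (edgeR adjusted p = 0.5434).

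Of the basolateral channels and the sodium pump, through which chloride and sodium leave the cell, 2 of 8 fell and none rose (median -0.62). Fxyd2, the gamma subunit of the pump, fell by 1.00 ± 0.15 (log2, SE, edgeR adjusted p = 0.00723), and its levels of 1529 to 1732 CPM in the Tomato-negative and 698 to 1029 CPM in the Tomato-positive libraries did not overlap. The potassium channel gene Kcnj10 had a paired log2 difference of -0.90 ± 0.37 (edgeR adjusted p = 0.1713), with -1.88 in CKD523 and -0.07 in CKD627. The interaction for Kcnj10 was 1.84 (log2, edgeR adjusted p = 0.1358) and did not pass. Of the magnesium genes 1 of 10 tested fell and none rose (median -0.07). This was Egf, the growth factor that stimulates TRPM6, which fell by 1.38 ± 0.19 (log2, SE, edgeR adjusted p = 0.005946), from 699 ± 378 to 274 ± 132 CPM (SD, n = 4).

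Of the calcium genes that are not among the 10, 4 of 11 fell and 1 rose (median -0.74). S100g, calbindin-D9k, was at 26.0, 40.0, 244 and 310 CPM in the Tomato-negative and 12.5, 11.8, 14.96 and 43.7 CPM in the Tomato-positive libraries. Like Calb1, S100g was lower in the Tomato-positive library of each pair, and it fell by 2.47 ± 0.42 (log2, SE, edgeR adjusted p = 0.01228). Klk1, tissue kallikrein, fell by 2.08 ± 0.20 (log2, edgeR adjusted p = 0.00148) and Pth1r, the parathyroid hormone receptor, by 0.75 ± 0.12 (log2, edgeR adjusted p = 0.01064). Trpv6, a calcium channel closely related to Trpv5, rose by 0.96 ± 0.22 (log2, SE, edgeR adjusted p = 0.03353), higher in 4 of 4 pairs, from 33.7 ± 21.6 to 59.2 ± 20.7 CPM. The fourth gene that fell, named after its values were seen, was Kl, the co-receptor of fibroblast growth factor 23, by 0.74 ± 0.15 (log2, edgeR adjusted p = 0.02183). Atp2b1, a calcium pump, differed by 0.17 ± 0.17 (log2, edgeR adjusted p = 0.5727). The count of 5 changed calcium genes was 3 without the CKD523_2 pair, 2 without CKD523_3, 8 without CKD627_1 and 1 without CKD627_2.

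Of 5 genes that mark the distal convoluted tubule by their place of expression, 2 fell and none rose (median -1.53). The transcription factor gene Emx1 fell by 1.45 ± 0.19 (log2, SE, edgeR adjusted p = 0.004431), from 42.0 ± 14.7 to 16.6 ± 8.75 CPM (SD, n = 4). Tmem52b fell by 1.62 ± 0.24 (log2, edgeR adjusted p = 0.00723), from 223 ± 139 to 90.0 ± 76.7 CPM, lower in 4 of 4 pairs. Tfap2b, whose protein binds the AP-2 letters searched for upstream, had a difference of -0.24 ± 0.18 (log2, edgeR adjusted p = 0.4421). Its average was 56.5 CPM in the Tomato-negative and 46.9 CPM in the Tomato-positive libraries.

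**Figure D4:**
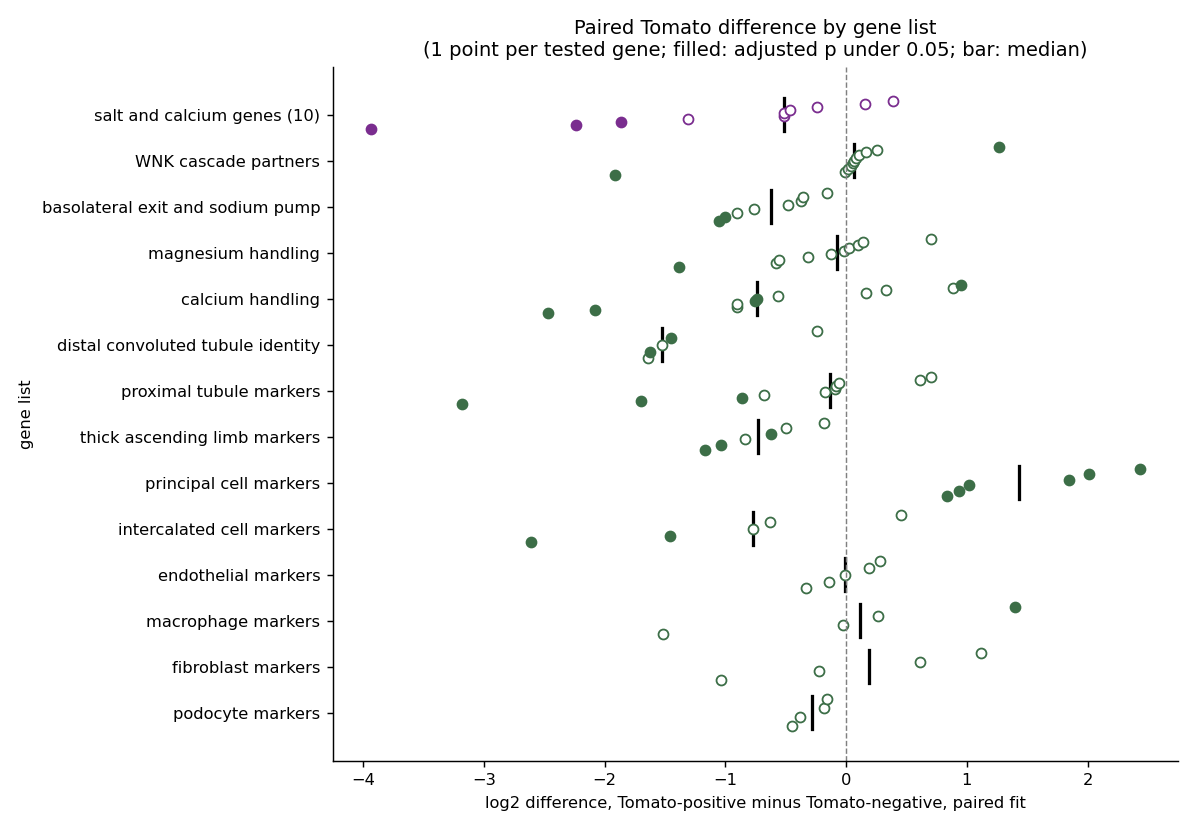
Paired log2 difference, Tomato-positive minus Tomato-negative (horizontal axis), of each tested gene of the lists named on the vertical axis, filled where the adjusted p was under 0.05, with the list's median as a bar. The 10 salt and divalent ion genes are in the top line with their median at -0.51, the genes marking the distal convoluted tubule have theirs at -1.53, and all 6 principal cell markers lie to the right of 0.

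Markers of neighbouring segments and of other cells differed between the Tomato groups beside these genes. In the paired edgeR fit 3 of 6 thick ascending limb markers fell and none rose, and their summed level was 3541 to 13770 CPM in the Tomato-negative and 1713 to 6984 CPM in the Tomato-positive libraries. All 6 principal cell markers, Aqp2 among them, rose, with sums of 159 to 1826 and 734 to 4226 CPM. Of the intercalated cell markers 2 of 5 fell (sums 145 to 1630 and 120 to 569 CPM, median log2 difference -0.77). Of the proximal tubule markers 3 of 10 fell (Kap, Slc22a6 and Slc27a2, median -0.13). None was called higher in either list, and 3 markers of each were lower in 4 of 4 pairs. The intercalated marker Slc4a1 (log2 difference 0.45, edgeR adjusted p = 0.1144) and the proximal tubule marker Slc5a2 (0.70, adjusted p = 0.08104) went the other way. Each was higher in 4 of 4 pairs and did not pass. The proximal tubule markers went apart by prefix. In CKD523 alone 8 of 10 were called lower (median log2 difference -0.88, 8.38% of tested genes called lower). In CKD627 alone 1 was (median 0.38, 1.01% of tested genes called lower). Kcnj1, of the thick ascending limb, differed by -1.99 in CKD523 and 0.25 in CKD627 (log2, edgeR interaction adjusted p = 0.01908). None of 5 endothelial markers (sums 83.9 to 440 and 34.6 to 507 CPM), 4 fibroblast markers (37.5 to 100.4 and 50.1 to 113 CPM) or 4 podocyte markers (115 to 487 and 33.5 to 384 CPM) was called. Of the macrophage markers 1 of 4 tested, Cd68, rose (sums 24.1 to 43.3 and 18.7 to 37.6 CPM), and Adgre1, C1qa and C1qb, 3 of the 5 listed, were at 0 in at least 1 library. Csf1r went the other way, lower in 4 of 4 pairs (log2 difference -1.52, edgeR adjusted p = 0.06173), and did not pass. The part of these cell types in the differences of Slc12a3, Pvalb and Calb1 was not tested.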

How the data were processed

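The deposited table held raw counts per gene symbol for 8 libraries, 4 in each Tomato group. Per the file headers, the authors' alignments came from subread. The submitters' processing notes name the build mm10, limma 3.46.0 and edgeR 3.32.1. RNA was extracted with a Norgen single cell kit and libraries were made with NEBNext Ultra reagents, per the labels' protocols. Counting tool, annotation and strand setting: not given in the sources used here. Overlapping and antisense genes cannot be told apart.

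Genes with at least 10 counts in 4 libraries and 15 in all (edgeR's filterByExpr) were kept. Tomato groups were compared with edgeR 4.0.16 in R 4.3.3 on the counts (TMM factors, quasi-likelihood test, 2-sided, Benjamini-Hochberg adjustment over all tested genes, threshold 0.05), without and with the title identifier as a block. SE is the log2 difference over the root of F. DESeq2 1.42.0 and limma-voom (limma 3.58.1) were alternatives, beside other scalings and filters, each prefix alone, and each library or pair left out. The code was tested on simulated data. CPM values are counts over the library total, with no TMM factor. Genes most alike were ranked on log2(CPM + 0.5) after each prefix's mean was subtracted.

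Deviations from the group means correlated over genes between libraries of the same identifier at 0.46, 0.32, 0.33 and 0.47, above the limit of 0.1 set for pairing. Libraries of the same prefix with other identifiers correlated at 0.30 to 0.47 as well, and those of the other prefix at -0.58 to -0.31. The check therefore shows a shared prefix and cannot show pairing by identifier, which rests on the titles alone. Libraries of a group differed beyond sampling noise (chi-square over its degrees of freedom 15.5 to 191, genes with at least 10 counts), so each counted as 1 sample.

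The 10 genes and the lists were chosen with earlier results of these data known. Named from the pathway lists were up to 3 genes per list and direction with the smallest p in the paired fit, and Sgk1, Kcnj10, Fxyd2, Egf, S100g, Atp2b1 and Tfap2b whatever their result. Some genes that the rule names are not reported here. Positions are from GENCODE M21 (GRCm38, the same build as mm10).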

Additional observations from a re-analysis of the deposited data

Results flagged for a closer look

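S100g stood out in a single Tomato-positive library. In CKD627_2 it was at 43.65 CPM, where the other 3 Tomato-positive libraries had 11.8, 12.5 and 14.96 CPM. The gap to the nearest library was 0.90 of the group's range, above Dixon's 95% critical value for 4 samples. It was the only one of 52 groups checked, and chance alone gives about 1 in 20.

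The pair differences of Sgk1 were positive in CKD523 and negative in CKD627. Sgk1 was at 295 and 241 CPM in the Tomato-negative and 471 and 529 CPM in the Tomato-positive libraries of CKD523, and at 270 and 225 against 231 and 171 CPM in CKD627. Sgk1 rose by 0.83 in CKD523 alone (log2, edgeR adjusted p = 0.001874), while its difference of -0.34 in CKD627 alone (edgeR adjusted p = 0.4056, 95% interval -0.83 to 0.14) did not pass. The difference between the fits of the prefixes was -1.17 (log2), and the edgeR interaction test across all genes gave an adjusted p of 0.1786, which did not pass.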

How the results depend on the processing

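Of the 10 genes, the unpaired edgeR fit called 0, also with RLE or upper-quartile factors, library size only, no filter, a stricter filter (which removed Pvalb), limma-voom and any 1 library left out. These fits called only 6 to 110 genes in all. The fit with the replicate block called 3, and 3 with each other scaling, 6 with DESeq2 and 4 with limma-voom in place of edgeR. In all, that fit called 1088 to 1093 genes with edgeR, 2026 with DESeq2 and 1389 with limma-voom. Leaving a pair out of it gave 3 (CKD523_2), 3 (CKD523_3), 8 (CKD627_1) and 2 (CKD627_2). Without the block, prefix as a covariate gave 6, CKD523 alone 6, CKD627 alone 3 and DESeq2 3. The genes called in all were 1527, 2231, 303 and 1000 in the same order. From the same fits, with the same totals, the 45 pathway genes gave 0 under the unpaired settings named first and 12 with the replicate block. That block gave 12 with RLE factors, 12 with upper-quartile factors, 13 with library size only, 20 with DESeq2 and 14 with limma-voom. Leaving a pair out of the paired fit gave 11 (CKD523_2), 9 (CKD523_3), 19 (CKD627_1) and 8 (CKD627_2). Prefix as a covariate gave 18, CKD523 alone 23, CKD627 alone 10 and DESeq2 8.

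The interaction called 0 of the 10 in edgeR, 3 in DESeq2, 3 without a filter (593 genes in all), and 0 to 3 with 1 library left out. The prefix comparison called 4 or 5 in every setting run. The member differences between Tomato groups kept their direction in 275 of 279 alternative values. With 1 library left out Stk39 ranged from -0.088 to 0.35, Trpv5 from -1.04 to 0.39 and Slc8a1 from -0.97 to 0.015, the upper ends of the last 2 being without the Tomato-negative library of CKD627_2. Prefix differences ranged from -0.81 to 0.24 for Pvalb, -0.15 to 0.21 for Trpm6 and -0.17 to 0.25 for Wnk1, which was -0.023 with limma-voom. The cause of these changes was not tested. Where a prefix's Tomato group was left with 1 library, it was assumed to vary like the others. Depth limits Pvalb most, at 0 to 30 counts in the Tomato-positive libraries.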
